A study of Mus musculus with 8 samples.

Results

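Glucocorticoids are the stress hormones of the adrenal cortex. In their target cells they bind the glucocorticoid receptor, which leaves its heat shock protein complex, enters the nucleus and switches on a small set of genes within hours. Several of these genes, such as Fkbp5 and Tsc22d3, are induced in most tissues, and in brain and spinal cord much of the induction is known from glial cells and blood vessels. Tissues also set their own exposure, since the enzyme encoded by Hsd11b1 turns inert 11-keto steroid back into active hormone.

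The 7 genes described here were chosen by name for these roles. They and the gene lists below were chosen with earlier results of these data known. Nr3c1 encodes the receptor and Hsd11b1 the activating enzyme. Fkbp5, Tsc22d3, Zbtb16, Klf9 and Hif3a are receptor targets. They are 7 of the 16026 genes tested on whole-transcript arrays of mouse tissue labelled as cervical spinal cord. The array annotation gave 1 probe set for each of the 7, with no other gene's symbol on it, and all 7 passed the filter on dim probe sets.

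The samples came from male C57BL/6 mice, 6 weeks old per the labels, in 4 groups of 2 arrays. Mice needled at acupoints were injected for 4 weeks, every 24 h, with 20 mg/kg MPTP (a toxin of dopaminergic neurons that serves as a model of parkinsonism). They were needled by hand on both sides at GB34 (to 3 mm) and LR3 (to 1 mm), 2 h after MPTP, every 48 h in 14 sessions. Hip-needled mice (the labels' non-acupoints group) received the same MPTP and were needled to 3 mm at both hips on the same schedule. The group called MPTP alone received MPTP without needling, and saline controls received injections of saline. Mice were held by hand for needling, and neither MPTP alone nor control is described as needled or held in the sources used here, so needling and restraint cannot be told apart. The labels number a mouse per array but give 9 mice in the control and MPTP groups. Whether arrays hold single mice or pools, the hour of tissue collection and the hormone level in blood are not given in the sources used here. The p-values therefore rest on the spread of 2 arrays per group, which may be technical.

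Values are the log2 signals deposited by the authors, so a difference of 1 is a doubling of signal. Differences come from 1 limma model over all 8 arrays with their standard error (SE), and a gene is called changed where its p, adjusted over all 16026 genes in that comparison (Benjamini-Hochberg), is under 0.05. Neuronal markers of the cord were present on every array (Snap25 from 12.01 to 12.50, the glycine transporter Slc6a5 from 11.01 to 11.21). So was the cervical Hox gene Hoxa5 (8.16 to 8.63), while Hoxc8 had a wider range (8.51 to 10.19). Of the forebrain genes, Neurod6 was not past the filter and Emx1 was (6.17 to 6.46). The Hox list (6 of 7 tested) had a mean of 7.30 for each acupoint replicate. Its mean was 7.74 (replicate 1) and 7.63 (replicate 2) after hip needling, and 7.61 and 7.67 with MPTP alone. Controls were at 7.23 (replicate 1) and 7.61 (replicate 2). In hip-needled mice 1 of these genes was called higher than control. Whether the level of the cord differed between arrays was not tested.

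Markers of other tissues differed between arrays of the same group. The mean level of 15 skeletal muscle genes was 6.99 on acupoint replicate 1 and 5.56 to 5.94 on the other MPTP arrays, while controls reached 7.48 (replicate 1) and 8.94 (replicate 2). Schwann cell markers (3 of 5 tested) averaged 6.85 on acupoint replicate 1 and 5.09 on acupoint replicate 2, and 7 meningeal markers averaged 8.29 and 6.26 on the same arrays. Adipose markers (3 of 5 tested) averaged 7.59 on hip replicate 2 and 4.68 to 5.31 on the other 7 arrays. The astrocyte list (7 genes) averaged 10.57 to 10.70 on the 6 MPTP arrays and 10.09 and 9.94 on the control arrays, and 7 of 7 were called higher with MPTP alone. Microglial markers averaged 7.56 to 7.82 on the 6 MPTP arrays and 7.26 and 7.23 in controls (4 of 7 called higher with MPTP alone), and neuronal markers 9.53 to 9.64 and 9.20 and 9.26 (4 of 8). Blood markers (4 of 6 tested) averaged 6.26 and 6.52 on the acupoint arrays, 7.71 and 6.87 on the hip arrays, 7.19 and 7.19 with MPTP alone, and 6.02 and 6.15 in controls, with 2 called higher in hip-needled mice, 2 with MPTP alone and 0 with acupoint needling. Oligodendrocyte markers (7 of 8 tested) averaged 10.73 to 10.96 on the 6 MPTP arrays and 10.635 and 10.703 in controls (2 called higher with MPTP alone). Endothelial markers (6 of 7 tested) averaged 7.82 to 8.15 on the 6 MPTP arrays and 7.84 and 7.69 in controls (1 called higher with MPTP alone). In tissue RNA, more cells of a type and more RNA per cell cannot be told apart.

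**Figure D1:**
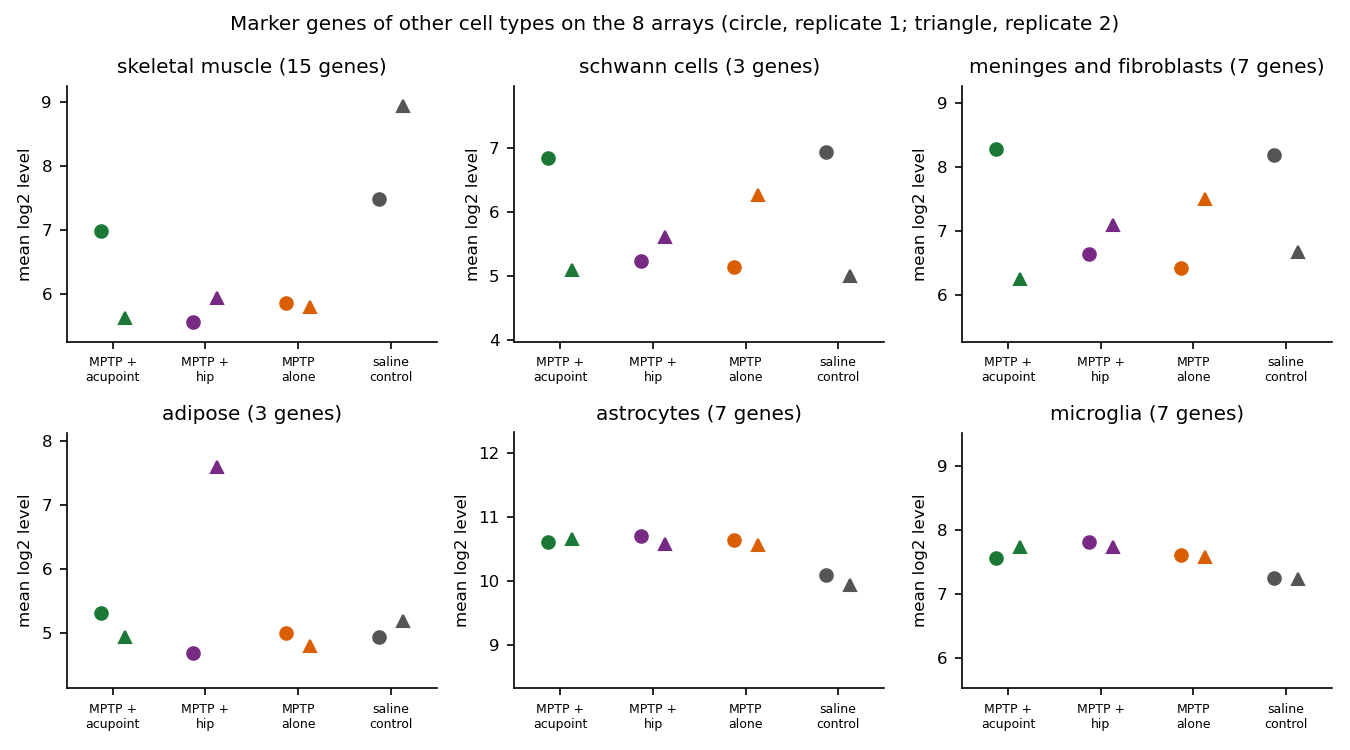
Mean log2 level of the marker genes of 6 cell types or tissues (y axis, the same span of 4 log2 units in each panel) on each array, by group (x axis; circles are replicate 1, triangles replicate 2). Muscle markers are highest on the control arrays (7.48 and 8.94) and adipose markers on hip replicate 2 (7.59). The acupoint replicates and the control replicates lie apart for muscle, Schwann cell and meningeal markers. The MPTP alone replicates lie apart for Schwann cell and meningeal markers.

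The receptor gene Nr3c1 was higher on all 6 MPTP arrays than on either control array. Its level was 8.84 and 8.62 on the acupoint arrays, 8.58 and 8.55 on the hip arrays, 8.68 and 8.69 with MPTP alone, and 8.33 and 8.24 in controls. Nr3c1 rose 1.32-fold with MPTP alone relative to control (log2 difference 0.40, SE 0.09, limma adjusted p = 0.0195) and 1.36-fold with acupoint needling relative to control (0.44, SE 0.09, adjusted p = 0.0187). In hip-needled mice it was 0.28 above control (SE 0.09), which did not pass (adjusted p = 0.0654). Over the 3 MPTP groups together it rose by 0.37 (SE 0.08, adjusted p = 0.00741). After cyclic loess scaling no Nr3c1 difference passed (0.27 for MPTP alone, adjusted p = 0.121), and without control replicate 2 the difference over the 3 groups was 0.33 with an adjusted p of 0.0805.

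Hsd11b1, the hormone-activating enzyme gene, had another order of groups. It stood at 7.51 and 7.48 with MPTP alone, 7.21 and 7.42 on the acupoint arrays, 7.22 and 7.01 on the hip arrays, and 7.10 and 7.05 in controls. Hsd11b1 rose 1.34-fold with MPTP alone (log2 difference 0.42, SE 0.11, adjusted p = 0.0347). This call was lost after cyclic loess (0.35, adjusted p = 0.0528), without an intensity trend (adjusted p = 0.051), and without any 1 of the control or MPTP arrays (0.40 to 0.45, adjusted p of 0.0829 to 0.215). The hip-needled arrays overlapped the controls (difference 0.04, 95% interval -0.22 to 0.30) and lay below MPTP alone by 0.38 (SE 0.11, unadjusted p = 0.00835, adjusted p = 1). The acupoint arrays lay between and did not pass against either group.

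The immunophilin gene Fkbp5 encodes a co-chaperone that lowers the receptor's affinity for hormone, and its own induction by the receptor forms a feedback loop. Its level was 7.57 and 8.02 on the acupoint arrays, 8.35 and 8.66 on the hip arrays, 8.02 and 7.96 with MPTP alone, and 7.20 and 7.10 in controls. Every MPTP array was above both controls, and the hip arrays were above all others. Fkbp5 was 2.56-fold higher in hip-needled mice than in controls (log2 difference 1.35, SE 0.15, adjusted p = 0.00201), 1.79-fold higher with MPTP alone (0.84, SE 0.15, adjusted p = 0.00824) and 1.57-fold higher with acupoint needling (0.65, SE 0.15, adjusted p = 0.0277). These 3 comparisons share the control arrays. The acupoint call was lost without acupoint replicate 2 (0.42, adjusted p = 0.0877), without any 1 of the control or MPTP arrays, without an intensity trend and with only these groups in the fit, and the difference was 0.87 without acupoint replicate 1. Over the 3 groups together the rise was 1.93-fold (0.95, SE 0.12, adjusted p = 0.00137), and it passed under each alternative scaling, filter and left-out array.

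Among the MPTP groups, Fkbp5 in hip-needled mice was 0.51 above MPTP alone (SE 0.15, unadjusted p = 0.00808, adjusted p = 1), and acupoint needling was 0.71 below hip needling (SE 0.15, unadjusted p = 0.00112, adjusted p = 0.936). Neither passed over all genes. Without acupoint replicate 2, whose 8.02 is the higher of the pair, the acupoint minus hip difference was -0.93. Acupoint replicate 1 then stood alone for its group.

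Tsc22d3 encodes GILZ, a leucine zipper protein that mediates part of the anti-inflammatory action of glucocorticoids. Its level was 7.87 and 8.35 on the acupoint arrays, 8.29 and 8.34 on the hip arrays, 8.10 and 8.13 with MPTP alone, and 7.89 and 7.82 in controls. Acupoint replicate 1 lay among the controls and acupoint replicate 2 was the highest of the 8 arrays, just above the hip arrays. Tsc22d3 rose 1.37-fold in hip-needled mice relative to control (log2 difference 0.46, SE 0.14, adjusted p = 0.0464). It was 0.26 above control with MPTP alone (SE 0.14, adjusted p = 0.247) and 0.25 above control with acupoint needling (SE 0.14, adjusted p = 0.282). The acupoint pair enters the spread shared by all comparisons: without acupoint replicate 1 or 2 the MPTP alone difference passed at the same size (adjusted p = 0.0281 and 0.0295). The acupoint difference was 0.50 without acupoint replicate 1 (adjusted p = 0.00619) and 0.0098 without replicate 2. The hip call was lost after cyclic loess (0.34, adjusted p = 0.0882).

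Zbtb16 encodes PLZF, a zinc finger transcription repressor that is a strong glucocorticoid target in many cell types. It took 2 levels, with nothing between them. On acupoint replicate 2 it was 8.27 and on the hip arrays 8.27 and 8.27. On acupoint replicate 1 it was 7.36, with MPTP alone 7.35 and 7.32, and in controls 7.43 and 7.35. The acupoint pair thus differed by 0.91, while the pairs of the other groups differed by 0.09 at most.

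In hip-needled mice Zbtb16 rose 1.84-fold relative to control (log2 difference 0.88, SE 0.23, adjusted p = 0.0266). Zbtb16 lost this call in 5 of the 17 alternative settings, among them the fit without an intensity trend (adjusted p = 0.0507). Relative to MPTP alone it was 1.91-fold higher (0.94, SE 0.23, unadjusted p = 0.0024), which did not pass over all genes (adjusted p = 1). That difference passed without acupoint replicate 1 (adjusted p = 0.0151), without acupoint replicate 2 (adjusted p = 0.019) and with only the hip and MPTP arrays in the fit (adjusted p = 0.0097), since the split acupoint pair then no longer enters the spread. Zbtb16 was 0.43 above control in acupoint-needled mice (SE 0.23, adjusted p = 0.268). This value was 0.88 without acupoint replicate 1 (adjusted p = 0.0017) and -0.03 without acupoint replicate 2. With MPTP alone the difference from control was -0.06 (95% interval -0.57 to 0.45), and it turned to 0.10 when arrays were centred on their medians.

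Adipose markers were high on 1 of the 3 arrays with Zbtb16 at its upper level (7.59 on hip replicate 2) and at 4.94 and 4.68 on the others (acupoint replicate 2 and hip replicate 1). Muscle markers averaged 5.56 to 5.94 on these 3 arrays and 5.80 and 5.86 with MPTP alone, where Zbtb16 was at its lower level. The Schwann cell and meningeal markers, which split the acupoint pair, averaged 6.95 and 8.20 on control replicate 1 and 5.0 and 6.67 on control replicate 2, where Zbtb16 was 7.43 and 7.35. The part of these markers in the Zbtb16 levels was not tested. Fkbp5 also had its highest value on hip replicate 2, and without that array the hip minus control difference of Fkbp5 was 1.20 and passed.

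**Figure D2:**
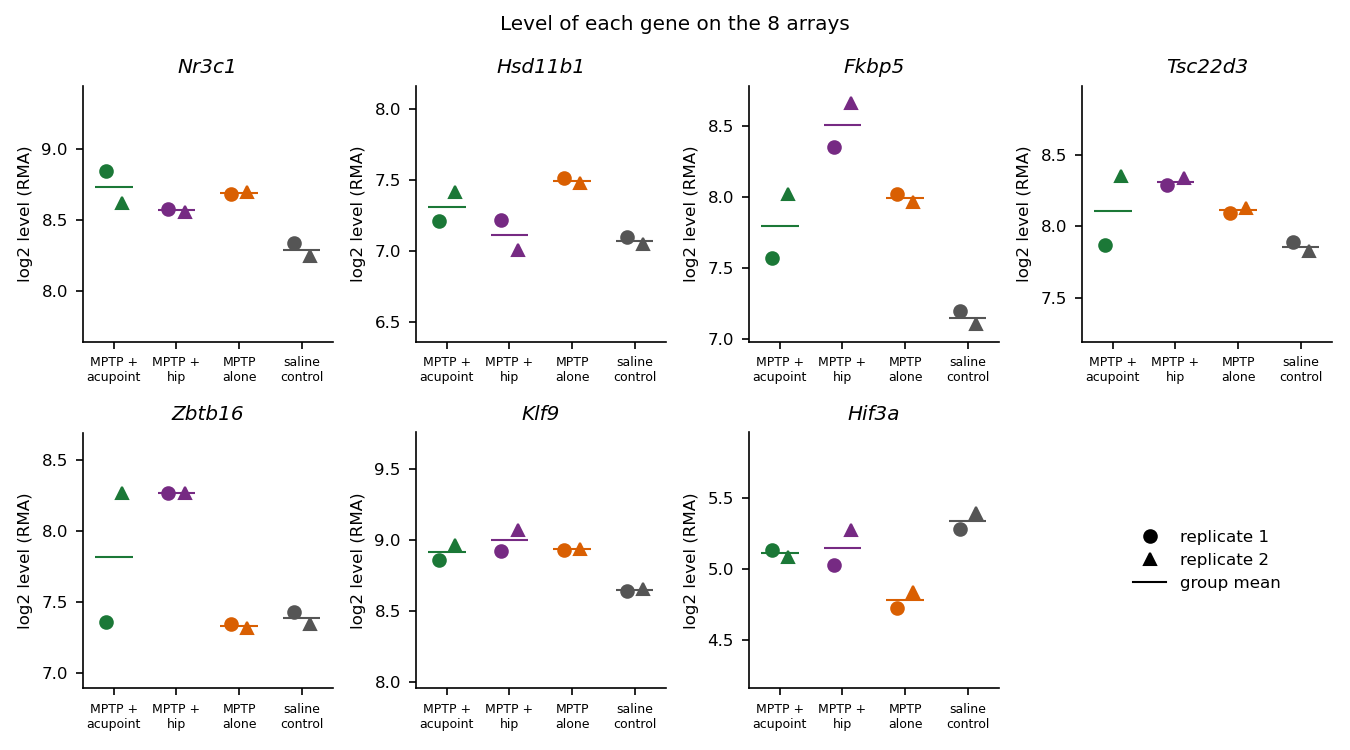
Log2 level of the 7 genes (y axis, the same span in each panel) on each array, by group (x axis; circles are replicate 1, triangles replicate 2, lines are group means of 2 arrays). Zbtb16 is near 8.27 on acupoint replicate 2 and both hip arrays and between 7.32 and 7.43 on the other 5, Fkbp5 is lowest in controls and highest on the hip arrays, and Hif3a is lowest with MPTP alone.

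Klf9, a Krüppel-like transcription factor gene induced by glucocorticoid and thyroid hormone, had close values within each group. Its level was 8.86 and 8.97 on the acupoint arrays, 8.93 and 9.07 on the hip arrays, 8.93 and 8.94 with MPTP alone, and 8.64 and 8.66 in controls. All 6 MPTP arrays exceeded both controls, and the 3 MPTP groups overlapped each other. Klf9 rose 1.27-fold in hip-needled mice (log2 difference 0.35, SE 0.08, adjusted p = 0.0193) and 1.22-fold with MPTP alone (0.28, SE 0.08, adjusted p = 0.0439) relative to control, and was 0.26 above control with acupoint needling (SE 0.08, adjusted p = 0.0702). The MPTP alone call was lost in 11 of the 17 alternative settings and the hip call in 8. Over the 3 groups the rise was 0.30 (SE 0.07, adjusted p = 0.0116). It was 0.17 after cyclic loess (adjusted p = 0.0995), and did not pass without control replicate 1 (0.29, adjusted p = 0.063) or control replicate 2 (0.30, adjusted p = 0.0747).

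Hif3a encodes a hypoxia-inducible factor subunit whose short forms oppose the other HIF proteins, and is induced by glucocorticoids in several tissues. It moved the other way. Its level was 5.13 and 5.09 on the acupoint arrays, 5.02 and 5.27 on the hip arrays, 4.72 and 4.84 with MPTP alone, and 5.28 and 5.39 in controls. These signals lie close to the filter at 4.30, where arrays understate fold changes. Hif3a fell 1.47-fold with MPTP alone relative to control (log2 difference -0.56, SE 0.14, adjusted p = 0.0276). The needled arrays lay between MPTP alone and control, 0.33 above MPTP alone at acupoints (SE 0.14, unadjusted p = 0.0445, adjusted p = 1) and 0.37 above it at the hips (SE 0.14, unadjusted p = 0.0275, adjusted p = 1). Hip minus control was -0.19 (SE 0.14, adjusted p = 0.389) and turned to 0.02 after a further quantile normalization. With arrays centred on their medians the MPTP alone difference was -0.40 and did not pass (adjusted p = 0.0536). Nor did it pass after a further quantile normalization (-0.36, adjusted p = 0.0843). The Hif3a call for MPTP alone was lost in 6 alternative settings and kept in 10. With 1 array left out the difference ran from -0.61 to -0.50.

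With MPTP alone, 4 of the 7 genes were called higher than control (Fkbp5, Nr3c1, Hsd11b1 and Klf9), against 13.7% of all genes tested, and 1 was called lower (Hif3a), against 3.1%. In hip-needled mice 4 of 7 were called higher than control (Fkbp5, Zbtb16, Klf9 and Tsc22d3; 15.4% of all genes) and 0 lower (3.87%), and in acupoint-needled mice 2 of 7 (Fkbp5 and Nr3c1; 9.55%) and 0 lower (2.17%). Over the 3 MPTP groups 3 of 7 were called higher (Fkbp5, Nr3c1 and Klf9; 19.9%) and 0 lower (5.35%). Arrays did not overlap with controls for 5 genes higher and 2 lower with MPTP alone (41.9% and 22.1% of all genes), 5 and 1 in hip-needled mice (40.2% and 23.8%), 4 and 1 in acupoint-needled mice (33.2% and 15.6%), and 3 and 1 over the 3 groups (26.1% and 10.9%). These shares of all genes are large, so separation from 2 control arrays was common. The 7 genes were chosen with earlier results of these data known. Their counts and medians beside all genes are therefore not independent evidence. The median difference of the 7 genes from control was 0.28 with MPTP alone, 0.35 in hip-needled mice and 0.26 in acupoint-needled mice, beside 0.061, 0.054 and 0.061 over all genes tested. When an array was left out, the number of calls over all genes also rose or fell. The counts with a left-out array, here and below, depend on that number too, but did not move along with it in every case. For MPTP alone, 2 of 7 were called without control replicate 1, and 0 of 7 without control replicate 2 or either MPTP array, with Fkbp5 then at 0.80 to 0.87. Without acupoint replicate 1, 5 of 7 were called in acupoint-needled mice, 1 of 7 without acupoint replicate 2 or control replicate 1, and 0 of 7 without control replicate 2 or either MPTP array. Without either hip array, or without either control array, only Fkbp5 was called in hip-needled mice, and without either MPTP array Fkbp5 and Zbtb16 were.

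Scaling moved the common level. Centring each array on its median shifted the median gene by 0.158 for MPTP alone minus control. Relative to that median gene, Fkbp5 was 0.78 higher, Hsd11b1 0.36 higher, Nr3c1 0.34 higher, Klf9 0.22 higher and Hif3a -0.62. Muscle markers (lower on all 6 MPTP arrays than in controls) and astrocyte, oligodendrocyte, microglial, neuronal and blood markers (higher) moved along with these differences, and their part was not tested. Blood markers were also higher on the hip and MPTP alone arrays than on the acupoint arrays.

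No gene of the 16026 passed in the comparisons among MPTP groups (0% called for acupoint minus MPTP alone, hip minus MPTP alone, and acupoint minus hip). By an unadjusted limma p under 0.05, 4 of the 7 genes differed between hip needling and MPTP alone (Zbtb16, Fkbp5 and Hif3a higher, Hsd11b1 lower), where 1.7% of all genes did. For acupoint needling minus MPTP alone it was 1 of 7 (Hif3a) beside 1.25% of all genes, and for acupoint minus hip needling 1 of 7 (Fkbp5, lower) beside 3.77%. Arrays did not overlap between hip needling and MPTP alone for 6 of the 7 genes, 4 higher and 2 lower, where 17.1% and 19.1% of all genes were separated in these directions. The counts were 2 higher and 1 lower for acupoint needling minus MPTP alone (12.3% and 11.9% of all genes) and 1 and 1 for acupoint minus hip needling (15.2% and 13.1%). For Klf9, the gene that overlapped, the hip minus MPTP alone difference was 0.06 (95% interval -0.12 to 0.25).

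**Figure D3:**
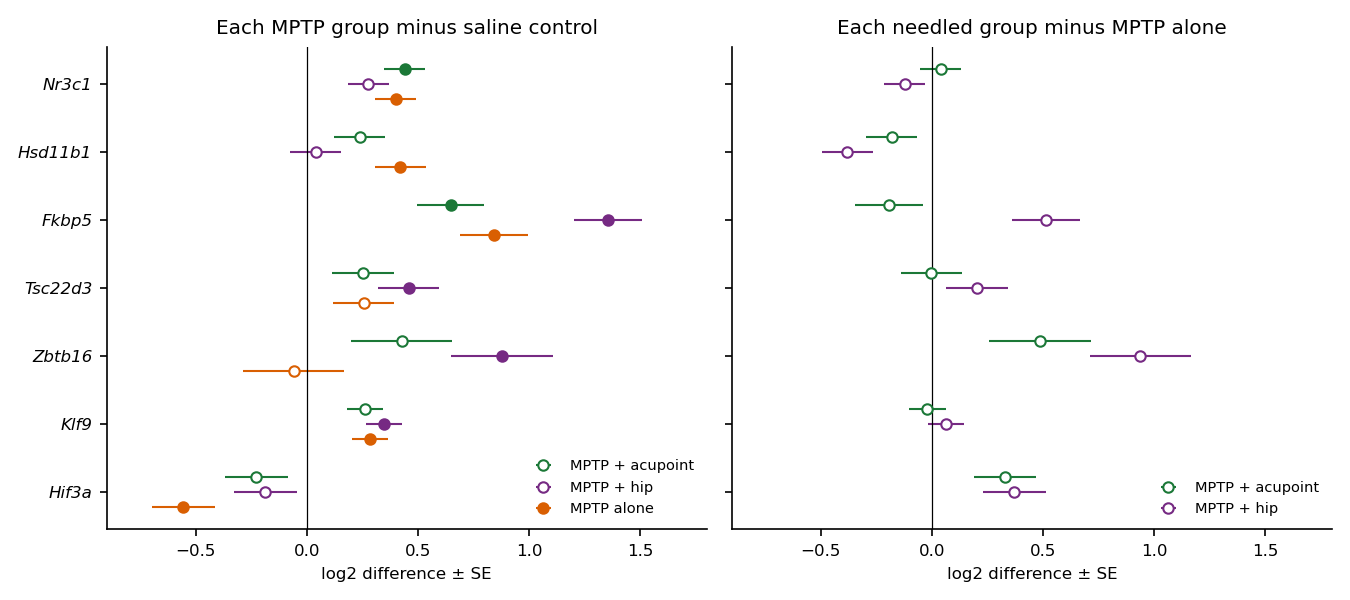
Log2 differences (x axis, with bars of 1 SE from the limma model over 8 arrays) of the 7 genes (y axis) for each MPTP group minus saline control (left) and each needled group minus MPTP alone (right). Filled points passed an adjusted p of 0.05. Fkbp5 in hip-needled mice is farthest right at 1.35, and no point in the right panel passed.

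Promoter windows of 300 bases, from 250 before to 50 after a transcript start, were matched in RefSeq (GRCm38.p6) for 5 of the 7 genes, 7 windows in all. The full palindromic glucocorticoid response element, AGAACA and TGTTCT with any 3 bases between them, was in 0 of the 7 windows and in 0.00913% of the 32851 windows of all genes. The receptor's core letters TGTTCT, searched on both strands and contained in the full element, were in 1 of the 7, a Tsc22d3 window, and in 19% of all windows. The E-box CACGTG, which clock factors bind, was in 1 of the 7, that of Fkbp5, and in 7.15% of all windows. These are matches of letters within short windows, and receptor sites of Fkbp5 and Tsc22d3 are known farther from the start. The sequences of these 2 windows are shown because they are the member windows that held a motif. They lie on the minus strand at chr17:28486100-28486399 (Fkbp5) and chrX:140600473-140600772 (Tsc22d3, from the start farthest upstream of 3), and capitals mark the E-box, 169 bases before the Fkbp5 start, and the core, 185 bases before the Tsc22d3 start.
Fkbp5: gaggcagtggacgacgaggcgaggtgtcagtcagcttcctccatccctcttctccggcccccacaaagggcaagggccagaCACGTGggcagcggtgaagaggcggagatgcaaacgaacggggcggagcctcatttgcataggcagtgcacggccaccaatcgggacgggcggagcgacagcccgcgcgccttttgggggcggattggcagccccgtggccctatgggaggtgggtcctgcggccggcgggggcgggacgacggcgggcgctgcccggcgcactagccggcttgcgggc
Tsc22d3: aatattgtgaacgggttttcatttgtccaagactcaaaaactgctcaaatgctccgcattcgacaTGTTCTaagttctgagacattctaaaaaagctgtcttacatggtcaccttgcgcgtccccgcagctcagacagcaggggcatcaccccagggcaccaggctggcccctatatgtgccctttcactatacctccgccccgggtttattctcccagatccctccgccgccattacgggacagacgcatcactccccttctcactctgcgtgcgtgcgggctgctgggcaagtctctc

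The genes around the receptor were followed in a list of 20 chaperone, coregulator and hormone-handling genes, of which 14 were tested. With MPTP alone, 4 were called higher than control (13.7% of all genes) and 1 lower (3.1%; list median 0.15, beside 0.061 over all genes). The drug and steroid exporter Abcb1a of the blood-brain barrier rose by 0.70 (SE 0.11, adjusted p = 0.00511). The receptor chaperone genes Hsp90aa1, Ptges3 and Fkbp4 rose by 0.38 (SE 0.06), 0.42 (SE 0.12) and 0.32 (SE 0.09), with adjusted p of 0.00654, 0.0377 and 0.0353. Fkbp4 encodes the immunophilin that replaces FKBP5 on the receptor upon hormone binding. The coactivator gene Ncoa3 fell by 0.46 (SE 0.10, adjusted p = 0.0144). Without MPTP replicate 1 or MPTP replicate 2 the count was 0, and without control replicate 2 it was 2.

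Hip needling minus control also had 4 higher and 1 lower (15.4% and 3.87% of all genes), with Abcb1b (0.65, SE 0.14, adjusted p = 0.0141) called and Fkbp4 not. The list median was 0.098, beside 0.054 over all genes. The count of 5 was 0 without hip replicate 1 and 2 without hip replicate 2. Acupoint needling minus control had the same numbers, 4 higher and 1 lower (9.55% and 2.17% of all genes). The list median there was 0.069, beside 0.061 over all genes. This acupoint count of 5 was 2 after cyclic loess, 2 without an intensity trend and 0 with only these groups in the fit. It was 3 without the filter and 3 with the replicate block. These acupoint calls were also lost without control replicate 2. The mineralocorticoid receptor gene Nr3c2, which encodes a higher-affinity receptor for the same hormone, was at 8.03 and 7.91 on the acupoint arrays, 7.96 and 7.85 on the hip arrays, 8.13 and 8.09 with MPTP alone, and 7.91 and 8.04 in controls. The gene of the inactivating enzyme, Hsd11b2, stayed between 4.95 and 5.19 on all 8 arrays. Neither was called in any comparison.

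Of 35 other genes listed as glucocorticoid-induced, 31 were tested. Compared with control, 7 were called higher in hip-needled mice, 6 with MPTP alone and 1 with acupoint needling, beside 15.4%, 13.7% and 9.55% of all genes, and 0 were called lower. The acupoint count was 7 without acupoint replicate 1, 5 with centred arrays, 2 without control replicate 1 and 0 with only these groups in the fit. The list medians were 0.18, 0.11 and 0.10, beside 0.054, 0.061 and 0.061 over all genes. The serine protease gene Htra1 was called in all 3 comparisons, by 0.87 (SE 0.08, adjusted p = 0.00117), 0.77 (SE 0.08, adjusted p = 0.00218) and 0.58 (SE 0.08, adjusted p = 0.006) in the same order. The lipid droplet gene Plin4 rose 2.16-fold in hip-needled mice (log2 1.11, SE 0.17, adjusted p = 0.0048). It was 6.06 and 6.34 on the acupoint arrays, 6.59 and 7.04 on the hip arrays, 6.30 and 6.27 with MPTP alone, and 5.57 and 5.84 in controls. Adipocytes also express Plin4. Adipose markers averaged 4.68 on hip replicate 1 and 7.59 on hip replicate 2, and their part in the Plin4 levels was not tested.

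The metallothionein gene Mt2, which binds zinc and is a classical receptor target, rose by 0.66 in hip-needled mice (SE 0.11, adjusted p = 0.00595) and by 0.43 with MPTP alone (SE 0.11, adjusted p = 0.0308). Mt1 rose by 0.33 in hip-needled mice (SE 0.08, adjusted p = 0.0173) and was at 0.19 with MPTP alone (adjusted p = 0.125). The astrocyte connexin gene Gjb6 rose in the same comparisons as Mt2, by 0.53 (SE 0.12) in hip-needled mice and 0.41 (SE 0.12) with MPTP alone. Rhob and Gadd45g were called in hip-needled mice, at 0.35 (SE 0.08) and 0.54 (SE 0.15), beside 0.14 and 0.42 with MPTP alone. The hip count of 7 was 12 with centred arrays, 4 after cyclic loess and 4 without an intensity trend. The count of 6 with MPTP alone was 3 after cyclic loess and 3 without an intensity trend. Of the 7 calls in hip-needled mice 3 were left without either hip array and 4 without control replicate 2. Of the 6 with MPTP alone 1 was left without control replicate 2 or either MPTP array.

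Sgk1 and Bcl6 of this list had another order of groups. The kinase gene Sgk1 was 8.06 and 8.22 on the acupoint arrays, 8.09 and 8.27 on the hip arrays, 8.78 and 8.65 with MPTP alone, and 8.29 and 8.15 in controls. It rose by 0.50 with MPTP alone (SE 0.10, adjusted p = 0.0136). Bcl6, a transcription repressor gene, was 7.52 and 7.79 on the acupoint arrays, 7.86 and 7.64 on the hip arrays, 8.13 and 7.97 with MPTP alone, and 7.40 and 7.36 in controls, and rose by 0.67 with MPTP alone (SE 0.12, adjusted p = 0.00846). Fkbp5 and Zbtb16 thus had their highest group mean in hip-needled mice, while Sgk1, Bcl6 and Hsd11b1 had theirs with MPTP alone. Acupoint replicate 2 was also at the hip level of Zbtb16, and no difference among the MPTP groups passed in the fit over all 8 arrays. The clock and glucocorticoid target Per1 lay between 6.64 and 6.96 on all arrays and was not called.

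**Figure D4:**
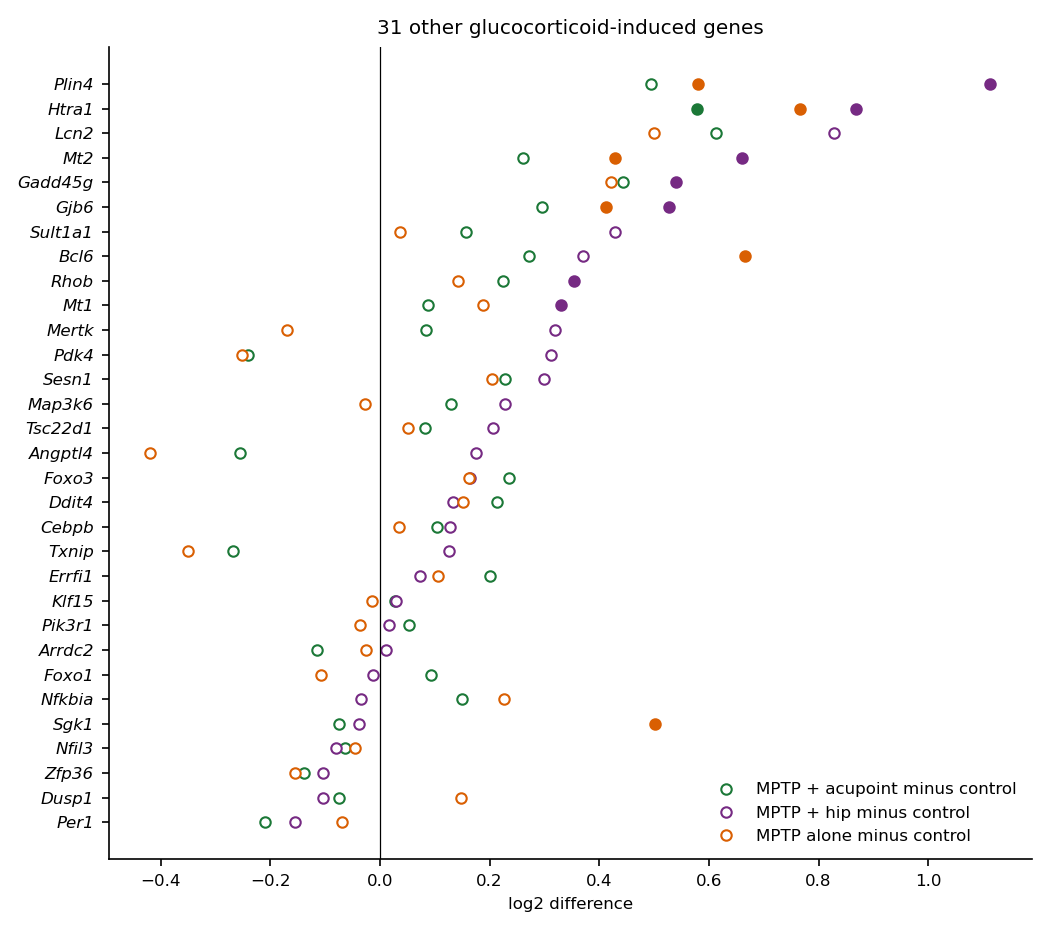
Log2 difference from saline control (x axis) of 31 other glucocorticoid-induced genes (y axis, ordered by the hip-needled difference) in the 3 MPTP groups, which share the 2 control arrays. Filled points passed an adjusted p of 0.05 (7 hip, 6 MPTP alone, 1 acupoint), and Plin4 and Htra1 lie farthest to the right.

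Hif3a was set beside 20 other hypoxia-inducible factor genes and targets of theirs. With MPTP alone 2 were called higher (13.7% of all genes) and 2 lower (3.1%; list median 0.092, beside 0.061 over all genes). The glucose transporter gene Slc2a1 rose by 0.86 (SE 0.08, adjusted p = 0.00117) and the collagen hydroxylase gene P4ha1 by 0.62 (SE 0.14, adjusted p = 0.0192), while Arnt, the partner subunit of the HIF proteins, fell by 0.42 (SE 0.10, adjusted p = 0.0224) and Vegfa fell by 0.33 (SE 0.09, adjusted p = 0.0398). The count of 4 was 1 without control replicate 2 or either MPTP array, 7 without either acupoint array and 8 with centred arrays. Of 14 genes listed as repressed by glucocorticoids 10 were tested, and the adhesion molecule Vcam1 (0.83, SE 0.12, adjusted p = 0.00457) and the protease Mmp9 (0.51, SE 0.10, adjusted p = 0.0117) were called higher with MPTP alone (13.7% of all genes), with 0 lower (3.1%). The count of 2 was 1 without control replicate 2 and 0 without either MPTP array. Motor neurons also express Mmp9. The cytokine genes Il1b, Il6, Ccl2 and Il1a were below the filter.

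Genes with the most similar course over the 8 arrays were sought among 14871 named genes, by the root mean square difference of log2 levels centred on each gene's mean. Closest to Fkbp5 were Gpd1, Plin4 and Tmed5 (differences of 0.148, 0.15 and 0.154, where Fkbp5 itself varied about its mean by 0.505). Gpd1, which encodes a glycerol phosphate dehydrogenase, was 9.70 and 9.76 on the acupoint arrays, 10.06 and 10.37 on the hip arrays, 9.97 and 9.88 with MPTP alone, and 8.99 and 9.13 in controls. Closest to Tsc22d3 were Plekha1, Cmpk1 and Fcer1g (0.046 to 0.047, own variation 0.204). Closest to Nr3c1 were Fzd8, Plekho2 and Slc7a1 (0.0334 to 0.0456, own variation 0.183).

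No gene followed the 2 levels of Zbtb16 as closely. Its nearest were the pseudogene Ptma-ps2, whose probes may also detect its parent gene, Trim59 and Mtbp, at 0.226 to 0.228, beside an own variation of 0.441. Trim59, a ubiquitin ligase gene, was 7.97 and 8.57 on the acupoint arrays, 8.83 and 8.70 on the hip arrays, 8.21 and 8.25 with MPTP alone, and 8.19 and 8.32 in controls. For Hif3a the nearest were Dpys, Slc16a3 and Trib3 (0.0701 to 0.0857, own variation 0.214), and for Hsd11b1 Fam13c, Rspo3 and Trib2 (0.0674 to 0.0722, own variation 0.185). Klf9 varied too little over the arrays for this comparison.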

How the data were processed

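The values are log2 signals of 35557 probe sets on 8 arrays, as deposited. Affymetrix Expression Console and RMA are named in the submitters' processing notes without versions, and the log base was read from the values. RNA (300 ng) was labelled for whole-transcript arrays, per the labels' protocols. Probe sets with 1 symbol in the platform annotation were kept above the 30th percentile of mean signal (4.30), and the brightest per gene was used. All 8 arrays were fitted with limma 3.58.1 in R 4.3.3 (1 mean per group, eBayes with intensity trend, 4 residual and 5.34 prior degrees of freedom, two-sided p, Benjamini-Hochberg within each of 7 comparisons). The test was checked on simulated data. Named from the lists were 7 fixed genes and up to 6 called genes per comparison with the smallest p. The genes Gpd1 and Trim59 came from the likeness rule. Gadd45g and, from the marker lists, Snap25, Slc6a5, Hoxa5, Hoxc8, Neurod6 and Emx1 were chosen after their values were seen. Members and lists were chosen with earlier results of these data known. Background correction and scan batches were not tested, since scanner files were not used here, and the number of arrays limits the precision.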

Additional observations from a re-analysis of the deposited data

How the results depend on the processing

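Of 7 genes, the number called for MPTP alone minus control was 5, and 2 after a further quantile normalization, 2 after cyclic loess, 3 without an intensity trend and 3 with the replicate block. For acupoint needling minus control it was 2, and 1 after cyclic loess, 1 without a trend and 0 with only these groups in the fit. For hip needling minus control it was 4, and 2 after quantile normalization, 2 after cyclic loess and 2 without a trend. For the 3 MPTP groups minus control it was 3, and 1 after cyclic loess and 6 with centred arrays. For hip needling minus MPTP alone it was 0, and 1 (Zbtb16) with only these groups. Leaving out 1 array at a time gave 0 to 6, 0 to 5, 1 to 5, 1 to 6 and 0 to 1 in these comparisons, 0 to 0 for acupoint needling minus MPTP alone and 0 to 3 for acupoint minus hip needling, where a lone array is assumed to vary like the other groups.

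The replicate numbers did not mark arrays that deviate together (correlations of replicate differences between groups of -0.328 to 0.174). With the replicate block Klf9 (adjusted p = 0.0576) and Hsd11b1 (adjusted p = 0.0566) lost their call for MPTP alone and Tsc22d3 (adjusted p = 0.0535) for hip needling minus control.

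Signs turned in these cases. For MPTP alone minus control Zbtb16 was 0.099 with centred arrays. For hip needling minus control Hif3a was 0.024 after quantile normalization and Hsd11b1 -0.027 after cyclic loess. For acupoint needling minus MPTP alone Klf9 was 0.0088 after cyclic loess and Tsc22d3 0.0084 and 0.018 after quantile normalization and cyclic loess. With 1 array left out, acupoint minus MPTP alone ran from -0.42 to 0.030 for Fkbp5, -0.073 to 0.031 for Klf9, -0.25 to 0.24 for Tsc22d3 and -0.073 to 0.15 for Nr3c1. Acupoint minus hip needling ran from -0.91 to 0.0037 for Zbtb16, -0.45 to 0.037 for Tsc22d3 and -0.17 to 0.085 for Hif3a. Zbtb16 ran from -0.028 to 0.88 in acupoint minus control, Hsd11b1 from -0.066 to 0.15 in hip minus control, and Klf9 from -0.0088 to 0.13 in hip minus MPTP alone. The cause of these changes was not tested. In 703 of 819 repeats over 49 differences and 17 settings, direction and call were kept. A call was lost in 73, gained in 26, and the sign turned in 17. An uncalled difference that stayed uncalled counts as kept, so the 703 do not measure how firm the calls were. The calls of Klf9 with MPTP alone and of Tsc22d3 with hip needling were each lost in 11 of 17 settings.

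Over all genes, scaling moved the split of calls. MPTP alone minus control had 2199 higher and 497 lower, and 1338 and 752 after cyclic loess and 4028 and 218 with centred arrays. Acupoint needling minus control had 1530 and 348, then 923 and 529, and 2706 and 166. Hip needling minus control had 2463 and 620, then 1576 and 941, and 4255 and 248. The 3 groups minus control had 3184 and 857, then 2206 and 1331, and 5417 and 351.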
